A study of Homo sapiens with 6 samples.

Results

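The genes described here encode the machinery that cuts nascent RNA polymerase II transcripts at their 3′ ends. They were chosen by gene symbol, 35 of the 19655 symbols in the deposited table: 21 genes of the cleavage and polyadenylation machinery and 14 genes of the Integrator complex. The rule is a list of symbols and uses no measured value, but the list was drawn up with earlier results of these data known. All 35 passed the filter on low counts, as did 14062 genes in all. RNA was sequenced from HCT116, an established human colorectal carcinoma line, in 3 control libraries (NC) and 3 libraries of cells transfected with an antisense oligonucleotide against SNORA67, a small nucleolar RNA (ASO). An antisense oligonucleotide is a short nucleic acid that pairs with a chosen RNA and can lead to its degradation. All 6 libraries are labelled as the same line and were grown in the same way, and the NC cells are labelled only as control. The sources used here give neither the oligonucleotide's sequence and dose nor the harvest time or what the NC cells received. Whether the libraries of a group are separate cultures is also unstated, so a p-value reflects library-to-library spread that may be technical in part or in whole.

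Column totals of the estimated counts were 50.7 to 53.7 M in NC and 49.1 to 54.9 M in ASO (M, 1e6). SNORA67 itself was not analysed here. EIF4A1, the translation initiation helicase whose introns hold SNORA67, had 1490, 1543 and 1600.5 CPM (counts scaled to 1 M per library) in the NC libraries against 651, 564 and 636 CPM in the ASO libraries, 2.5-fold lower (edgeR, adjusted p = 1.49e-05). The labelled colon epithelial origin was checked against 12 epithelial markers, of which 7 reached 1 CPM in NC. KRT8 and KRT18 were abundant, but EPCAM was at 3.39 to 5.60 CPM, CDH1 at 0.882 to 1.32 CPM and CDX2 under 0.5 CPM in every NC library, and ESRP1 was at 0 in all 6 libraries. Only 3 of the 12 markers reached 10 CPM in NC, KRT8, KRT18 and ELF3, and KRT19 averaged 0.0503 CPM there. Most of these levels thus do not bear out the labelled colon epithelial origin, and the identity of the cells was not tested. Of 12 mesenchymal markers, 10 reached 1 CPM and 8 reached 10 CPM in NC, with VIM at a mean of 1201 CPM. The summed level of the 12 was 2389 to 2722 CPM in NC and 3267 to 3881 CPM in ASO. COL5A1, COL1A1 and FN1 were higher in every ASO library than in any NC library, whereas PDGFRB (95.4 to 110.3 CPM in NC, 37.6 to 45.4 CPM in ASO), LUM and DCN were lower in every ASO library. The summed level of the epithelial markers was 1989 to 2292 CPM in NC and 1719 to 2262 CPM in ASO, within which LGALS4 was at most 0.0198 CPM in NC and 15.05 to 20.1 CPM in ASO, and VIL1 at most 0.202 CPM in NC and 1.121 to 14.6 CPM in ASO. The summed level of 8 leukocyte and endothelial markers was 10.3 to 12.1 CPM in NC and 17.0 to 23.2 CPM in ASO. The part of these marker differences in the results below was not tested. In such bulk RNA, a change of RNA per cell and a change in the mix of cells cannot be told apart.

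As background, most messenger RNAs get their 3′ end when a multisubunit complex recognises a hexamer, AAUAAA or a close variant, cuts the RNA downstream of it and adds a poly(A) tail. The cleavage and polyadenylation specificity factor (CPSF) reads the hexamer and holds the endonuclease, cleavage factor I (CFI) binds UGUA upstream, cleavage stimulation factor (CstF) binds U- and GU-rich RNA downstream, and cleavage factor II (CFII) links cutting to the release of the polymerase. Integrator is a separate complex with its own endonuclease and a bound phosphatase, known for cutting small nuclear RNA precursors and for ending transcription early at many genes. Loss of these activities is known to let polymerases read past the ends of genes, and the level of CFI is known to shift the choice between alternative poly(A) sites.

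The hexamer that this machinery reads is itself present at the annotated ends of most of its own genes. In the last 50 bases of one annotated transcript per gene, 27 of the 35 genes (77.1%) held AATAAA, 2 (5.71%) held only ATTAAA and 6 (17.1%) held neither, searched on the transcribed strand. Over 13852 tested protein-coding genes the shares were 62.3%, 14.1% and 23.6%. The following 30-base windows (GENCODE 29, GRCh38), written 5′ to 3′ on the gene's strand with the hexamer in capitals, are shown for some of the genes whose levels differed between the groups, so that the signal can be seen beside the measured change.
CPSF2 (chr14:92172113-92172142, plus strand): tagcaattgtgaAATAAAcagattctgaag
CPSF3 (chr2:9473062-9473091, plus strand): tttgttacctaaAATAAAatgcattcgttt
PAPOLA (chr14:96567079-96567108, plus strand): cattgaaaacacAATAAAaaaaaaacagca
CPSF6 (chr12:69274324-69274353, plus strand): tcttgtattgaaAATAAAacaaacttttga
NUDT21 (chr16:56429138-56429167, minus strand): tattgtcatttcAATAAAaaatatttgaaa
INTS4 (chr11:77878724-77878753, minus strand): tctcctgtccacAATAAAgttgagaaaaca
INTS13 (chr12:26905195-26905224, minus strand): ttctctttgcgaAATAAAactattaaaata
CPSF7 (chr11:61402659-61402688, minus strand): atatttttaaatAATAAAtggggtgtgagc
CSTF1 (chr20:56406330-56406359, plus strand): cgtgatttctgaAATAAActttatatacaa
CPSF4, which did not pass the test, holds the variant instead (chr7:99457342-99457371, plus strand): ttttatgaaatggATTAAAgcttgtttttt

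The canonical hexamer was thus found both among the genes that fell, 8 of 9, and among those that rose, 3 of 3. Over all protein-coding genes tested, 26.3% of those with AATAAA were called higher and 20.6% lower, against 24.7% and 20.1% with ATTAAA and 29.4% and 15.7% with neither. A match is a description of these letters and not a mapped cleavage site, and the count table does not show which site was used.

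ASO was compared with NC to see which components of the machinery differed in RNA level. Of the 35 genes, 3 were higher in ASO (WDR33, CPSF7 and CSTF1), 9 were lower (CPSF2, CPSF3, CPSF6, NUDT21, PAPOLA, INTS4, INTS8, INTS10 and INTS13) and 23 did not pass an adjusted p of 0.05 in the edgeR quasi-likelihood test. The 12 called genes make up 34.3% of the 35, whereas 46.0% of all 14062 genes tested were called, 26.8% higher and 19.1% lower. Among the 9501 genes at or above the lowest of the 35 in NC, with no upper limit, 44.2% were called, 18.3% higher and 25.8% lower, against 8.57% higher and 25.7% lower among the 35. The difference between these shares was not tested. The NC and ASO libraries did not overlap for 15 of the 35 genes (42.9%), compared with 57.6% of all genes tested. The median log2 fold change was -0.07 over the 35 genes and 0.01 over all genes tested. The differences were mostly modest, and INTS8 was the 1 called gene of 12 that changed at least 2-fold.

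**Figure D1:**
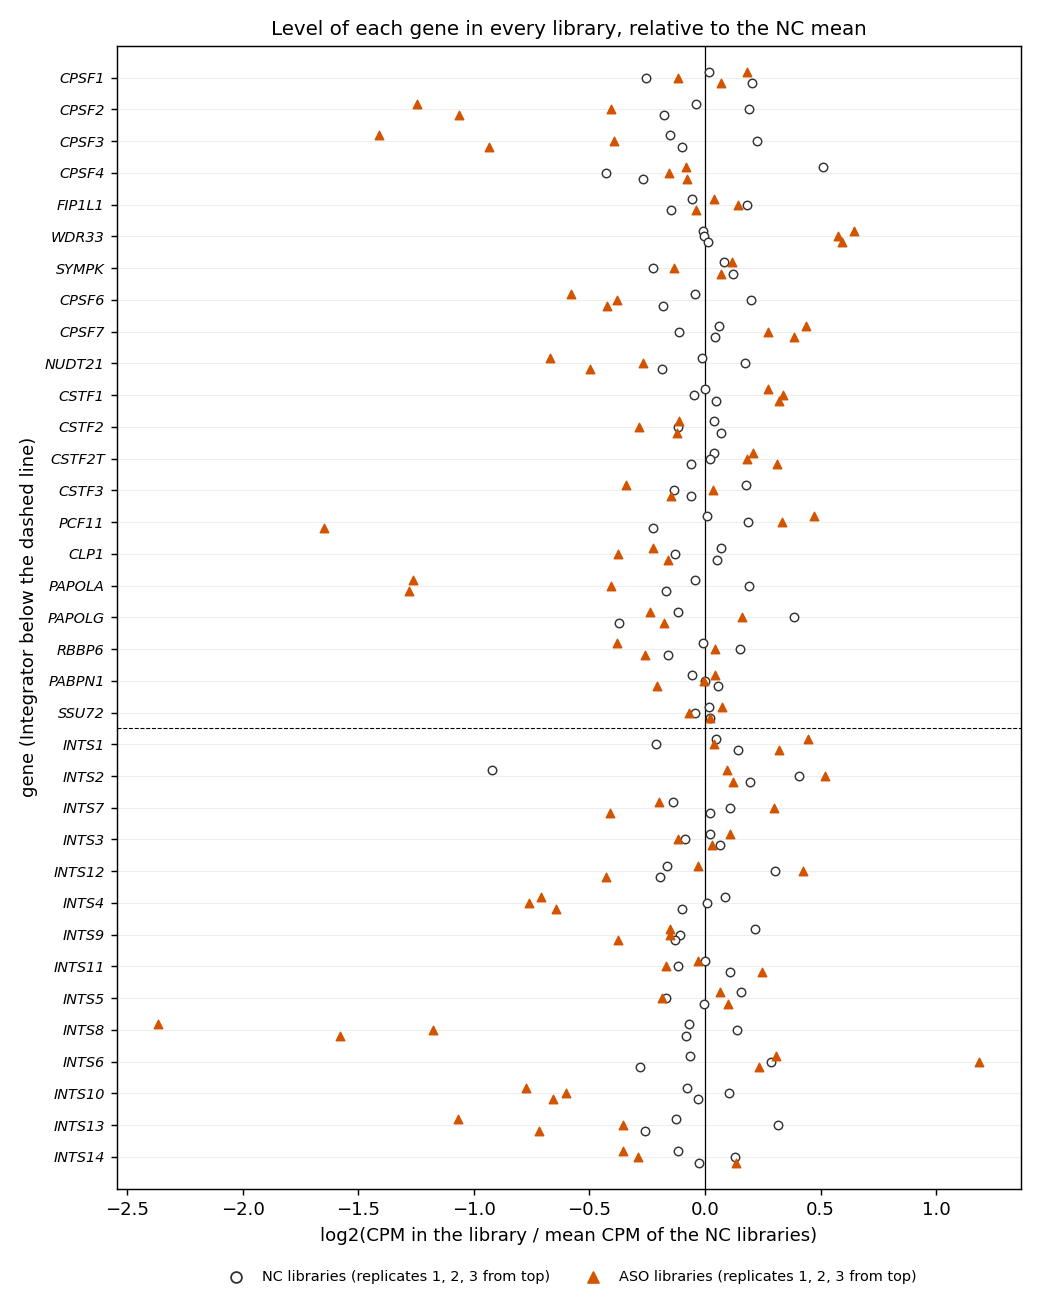
Level of each of the 35 genes in every library, as log2 of its CPM over the mean CPM of the 3 NC libraries (circles, NC; triangles, ASO; replicates 1 to 3 from top to bottom in each row; Integrator genes below the dashed line). INTS8 lies far to the left in all 3 ASO libraries, WDR33 lies to the right of its tightly grouped NC libraries, and PCF11 has 2 ASO libraries above its NC levels and 1 far below.

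CPSF is built of 2 parts, and its genes did not move together. In the part that recognises the hexamer, WDR33, which contacts the AAUAAA bases together with CPSF4, rose 1.52-fold. Its levels were 111, 111 and 112 CPM in NC and 174, 166 and 168 CPM in ASO, with means of 111 ± 0.895 and 169 ± 4.02 CPM (SD, n = 3 libraries, as for every mean below). All ASO libraries lay above all NC libraries, by far more than the spread within either group (log2 fold change 0.61, SE 0.08, 95% interval 0.43 to 0.78, edgeR adjusted p = 0.000583). CPSF1, the scaffold of the complex, was at 207, 171 and 236 CPM in NC and 232, 189 and 215 CPM in ASO. Those ranges overlapped, and the interval of its log2 fold change was -0.26 to 0.36 (adjusted p = 0.784). FIP1L1, which binds poly(A) polymerase, gave 45.7 to 57.3 CPM in NC and 49.2 to 55.8 CPM in ASO (adjusted p = 0.752).

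CPSF4, the zinc-finger partner of WDR33, was at 58.1, 30.3 and 33.8 CPM in NC and 38.4, 36.6 and 38.6 CPM in ASO. The NC1 library stood apart from the other two NC libraries, the groups overlapped, and the interval of -0.64 to 0.43 leaves room for a change in either direction (adjusted p = 0.738). The whole span of CPSF4 lies under PTCD1 on the opposite strand, whose own log2 fold change was 0.80 (adjusted p = 0.0016). No source used here states whether the authors counted by strand, so the 2 genes may share reads.

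In the part of CPSF that cuts, both metallo-beta-lactamase proteins were lower. CPSF3 is the endonuclease of pre-mRNA 3′ end formation, and its level was 25.2, 32.7 and 26.1 CPM in NC and 10.6, 21.4 and 14.7 CPM in ASO. It fell 1.81-fold, from 28.0 ± 4.09 to 15.5 ± 5.45 CPM, with no overlap between the groups (log2 fold change -0.85, SE 0.25, adjusted p = 0.0262). CPSF2, its catalytically inactive partner, was at 104, 122 and 94.1 CPM in NC and 44.9, 80.4 and 50.9 CPM in ASO. It also fell 1.81-fold, from 106 ± 14.02 to 58.8 ± 19.0 CPM, again without overlap (log2 fold change -0.86, SE 0.22, adjusted p = 0.0141). In both genes the NC2 library was the highest of NC and the ASO2 library the highest of ASO. SYMPK (symplekin), the scaffold that joins them, was at 234, 189.6 and 241 CPM in NC and 241, 202 and 232 CPM in ASO, and its interval of -0.25 to 0.29 was centred near 0 (adjusted p = 0.894). The 2 falls were near the threshold: the CPSF2 call was lost without NC replicate 2 or ASO replicate 3 (adjusted p of 0.0614 and 0.0586), and the CPSF3 call was lost without any 1 NC library or without ASO replicate 3 (0.0545 to 0.0961).

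All 3 genes of CFI passed the test, in opposite directions. NUDT21, the subunit that binds UGUA, fell 1.38-fold. Its levels were 86.2, 98.0 and 76.4 CPM in NC and 54.6, 72.2 and 61.5 CPM in ASO, or 86.9 ± 10.8 against 62.8 ± 8.86 CPM (log2 fold change -0.47, SE 0.14, adjusted p = 0.0259). NUDT21 is joined in CFI by CPSF6 or CPSF7, which carry the arginine- and serine-rich regions that contact the rest of the machinery. CPSF6 was at 111, 131 and 101 CPM in NC and 76.5, 87.8 and 85.3 CPM in ASO, a 1.37-fold fall from 114 ± 15.6 to 83.2 ± 5.94 CPM (log2 fold change -0.46, SE 0.12, adjusted p = 0.0162). CPSF7 was at 191, 169 and 189 CPM in NC and 248, 221 and 239.5 CPM in ASO, a 1.29-fold rise from 183 ± 11.97 to 236 ± 13.8 CPM (log2 fold change 0.37, SE 0.09, adjusted p = 0.0107). No library of one group reached into the other for any of the 3 genes. The CPSF7 call held in every alternative run, whereas CPSF6 lost its call without NC replicate 2 or ASO replicate 1 (adjusted p of 0.0541 and 0.0504) and NUDT21 without NC replicates 1 or 2 or ASO replicates 1 or 3 (0.0729 to 0.102).

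The balance between related subunits was followed as a ratio of CPM per kb of transcript within each library, which does not depend on scaling between libraries. CPSF7 over CPSF6 was 3.12, 2.34 and 3.40 in NC and 5.88, 4.56 and 5.09 in ASO, 1.77-fold higher. These 2 transcripts differ in GC content, at 51.2% for CPSF7 and 37.1% for CPSF6, and the part of GC content in the ratio was not tested. PAPOLG over PAPOLA, the pair of poly(A) polymerases, was 0.0728, 0.0878 and 0.0665 in NC and 0.156, 0.113 and 0.164 in ASO, 1.9-fold higher. CSTF2T over CSTF2, the pair of GU-binding CstF subunits, was 0.274, 0.301 and 0.251 in NC and 0.342, 0.379 and 0.371 in ASO, 1.32-fold higher. In each of these 3 pairs the 2 groups did not overlap. CPSF3 over CPSF2, by contrast, was 1.35, 1.49 and 1.54 in NC and 1.31, 1.48 and 1.60 in ASO, so the endonuclease and its partner kept nearly the same mean ratio while both fell. INTS11 over INTS9, the corresponding pair in Integrator, overlapped at 5.43, 6.27 and 7.44 in NC and 6.85, 6.24 and 9.71 in ASO. With 3 libraries against 3, a two-sided exact permutation test cannot give a p below 0.1. It gave 0.1 for the first 3 pairs (0.167 after Benjamini-Hochberg adjustment over the 5 pairs), 1 for CPSF3 over CPSF2 and 0.5 for INTS11 over INTS9.

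**Figure D2:**
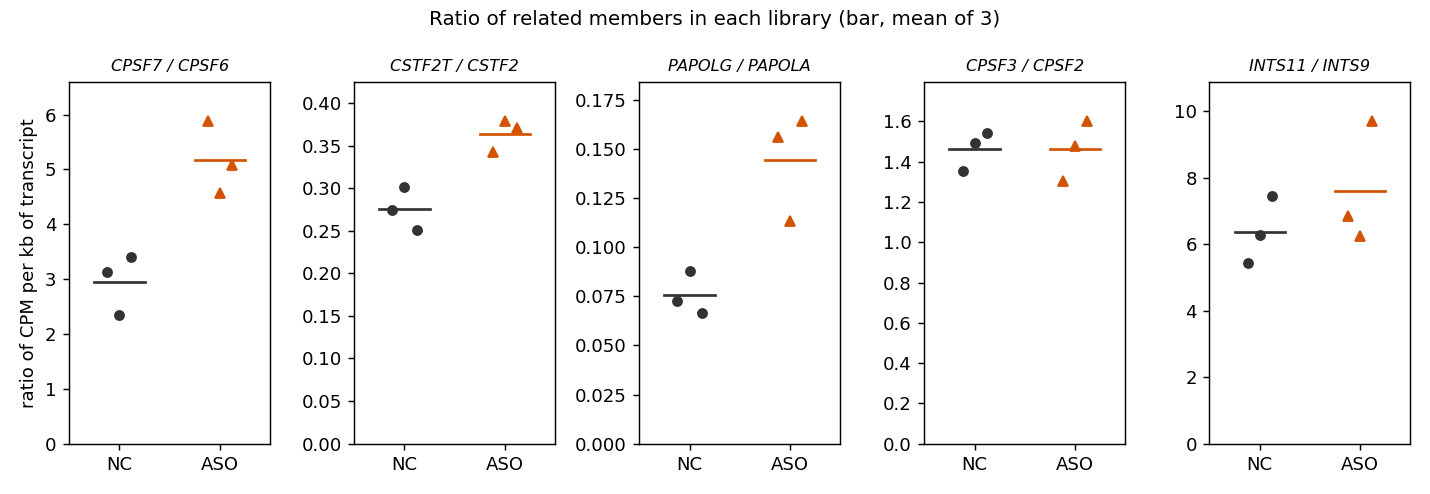
Ratio of CPM per kb of transcript between 5 pairs of related genes in each library (points, libraries; bars, means of 3; each axis starts at 0). The ASO libraries lie above the NC libraries for CPSF7 over CPSF6, CSTF2T over CSTF2 and PAPOLG over PAPOLA, and overlap with them for CPSF3 over CPSF2 and INTS11 over INTS9.

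In CstF, 1 of 4 genes passed the test. CSTF1, a WD-repeat subunit, was at 57.8, 56.0 and 59.7 CPM in NC and 69.8, 73.0 and 72.2 CPM in ASO. It rose 1.24-fold, from 57.8 ± 1.87 to 71.7 ± 1.67 CPM, a small difference that was still several times the spread within the groups (log2 fold change 0.31, SE 0.09, adjusted p = 0.0225). Its call was lost without any 1 NC library or without ASO replicate 3 (adjusted p of 0.054 to 0.0789). CSTF2, which binds the GU-rich RNA, was at 78.3 to 88.9 CPM in NC and 69.6 to 78.5 CPM in ASO, and its interval of -0.40 to 0.06 included 0 (adjusted p = 0.195). CSTF2T, the intronless retrogene copy of CSTF2, was at 50.1, 49.4 and 46.7 CPM in NC and 56.3, 55.3 and 60.6 CPM in ASO. These libraries did not overlap, but the difference did not pass after adjustment (log2 fold change 0.24, adjusted p = 0.0785). CSTF3, the subunit that bridges the others, was at 34.1 to 42.3 CPM in NC and 29.5 to 38.4 CPM in ASO (adjusted p = 0.44). It overlaps TCP11L1 on the opposite strand.

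In CFII, neither gene passed. PCF11, which binds the tail of RNA polymerase II and promotes its release, had the widest interval of the 35 genes. Its NC libraries gave 40.7, 46.0 and 34.6 CPM and its ASO libraries 56.0, 50.9 and 12.9 CPM. The ASO1 and ASO2 libraries lay above every NC library and ASO3 far below, so that the means were nearly equal (40.4 ± 5.73 and 39.9 ± 23.5 CPM) while the interval ran from -1.08 to 1.04 (adjusted p = 0.979). Without ASO replicate 3 the log2 fold change was 0.40, with an adjusted p of 0.0934. CLP1, an RNA kinase that partners PCF11, was at 42.6, 37.1 and 42.1 CPM in NC and 34.8, 31.3 and 36.4 CPM in ASO. The groups did not overlap, and the difference did not pass (log2 fold change -0.25, 95% interval -0.52 to 0.02, adjusted p = 0.113).

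PAPOLA, the main nuclear poly(A) polymerase, fell 1.9-fold and showed the same pattern over libraries as CPSF2. Its levels were 104, 122 and 95.3 CPM in NC and 44.6, 80.8 and 44.2 CPM in ASO, or 107 ± 13.7 against 56.5 ± 21.02 CPM (log2 fold change -0.92, SE 0.24, 95% interval -1.48 to -0.36, adjusted p = 0.0159). The ASO2 library stood well above the other two ASO libraries but still below NC. This call was lost without NC replicate 2 or ASO replicate 3 (adjusted p of 0.0688 and 0.0586). PAPOLG, a second nuclear poly(A) polymerase, was the scarcest of the 21 genes per kb and did not pass, at 5.98 to 10.1 CPM in NC and 6.57 to 8.64 CPM in ASO (adjusted p = 0.821).

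None of the 3 accessory genes passed. RBBP6, a ring-finger protein that activates the cleavage complex, was at 60.8 to 75.4 CPM in NC and 52.1 to 70.0 CPM in ASO (adjusted p = 0.304). PABPN1, which coats the growing tail and controls its length, was at 90.0 to 97.4 CPM in NC and 81.1 to 96.5 CPM in ASO (adjusted p = 0.696). A read-through gene, BCL2L2-PABPN1, shares the sequence of PABPN1 on the same strand, so counts of the pair may have been divided. SSU72, a phosphatase of the polymerase tail, was at 209.8, 201 and 210.3 CPM in NC and 218, 197 and 210.4 CPM in ASO, with an interval of -0.17 to 0.19 (adjusted p = 0.928). GENCODE lists 8 pseudogenes named for SSU72, of which 6 are in the count table.

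Over the 21 cleavage and polyadenylation genes, 3 rose, 5 fell and 13 did not pass, and the median log2 fold change was -0.07. The 5 lower calls depended on single libraries. Without NC replicate 2 none of the 21 genes was called lower, and without ASO replicate 3 only 1 was. Without NC replicate 1 or ASO replicate 1 there were 3. Over all genes, lower calls dropped as well, from 2692 to 1850, 1764, 1755 and 2151 in that order. Without NC replicate 2 the log2 fold changes of the 5 genes were still -0.34 to -0.80. Among the 21 genes the number called higher stayed at 2 or 3 when single libraries were left out.

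**Figure D3:**
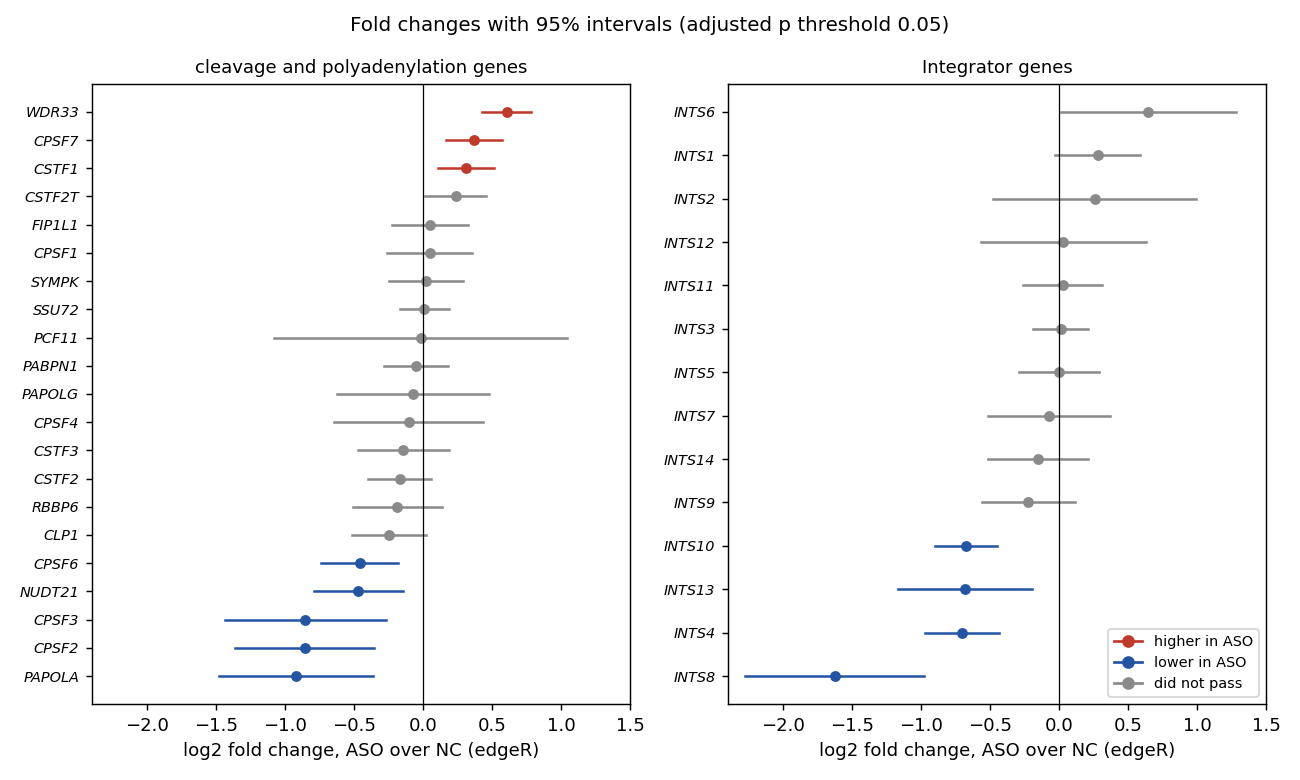
Fitted log2 fold change, ASO over NC, of each gene with its 95% interval (red, higher; blue, lower; grey, did not pass an adjusted p of 0.05), for the 21 cleavage and polyadenylation genes on the left and the 14 Integrator genes on the right. INTS8 has the largest fall at -1.63, and WDR33 at 0.61 has the largest rise among the genes that passed.

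In Integrator, 4 of 14 genes fell, none was called higher by edgeR and 10 did not pass, with a median log2 fold change of -0.04. Of the genes with a positive fold change, 1 had an unadjusted p under 0.05, and DESeq2 called 1 higher. The falls were INTS4 of the cleavage module, INTS8 of the shoulder, and INTS10 and INTS13, which share a module. For INTS4, INTS8 and INTS10 the call held in every alternative run, leaving out each library included.

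In the cleavage module, INTS4 fell and the catalytic subunit did not pass. INTS11, the endonuclease, was at 134, 124 and 145 CPM in NC and 132, 119.5 and 159 CPM in ASO (log2 fold change 0.03, 95% interval -0.26 to 0.31, adjusted p = 0.876). INTS9, its inactive partner, was at 29.3, 23.4 and 23.0 CPM in NC and 22.7, 22.7 and 19.4 CPM in ASO. Those groups lay next to each other without overlap, and the difference did not pass (log2 fold change -0.22, adjusted p = 0.248). INTS4, the scaffold that holds INTS9 and INTS11, was at 36.0, 34.1 and 31.6 CPM in NC and 20.7, 20.03 and 21.7 CPM in ASO. It fell 1.63-fold, from 33.9 ± 2.20 to 20.8 ± 0.841 CPM, with tightly grouped libraries on both sides (log2 fold change -0.70, SE 0.12, adjusted p = 0.00205). INTS4 overlaps AAMDC on the opposite strand over 43942 bases and has 2 annotated pseudogene copies, which share much of its sequence. The log2 fold change of AAMDC was -0.47 (edgeR adjusted p = 0.0661), and its reads may be shared with INTS4 if counting ignored strand.

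INTS8 showed the largest change of the 35 genes. This subunit of the Integrator shoulder, which docks the phosphatase PP2A, gave 23.5, 27.1 and 23.3 CPM in the NC libraries but 4.79, 10.9 and 8.24 CPM in the ASO libraries. It fell 3.09-fold, from 24.6 ± 2.17 to 7.97 ± 3.06 CPM, and its highest ASO library lay far below its lowest NC library (log2 fold change -1.63, SE 0.28, 95% interval -2.28 to -0.98, adjusted p = 0.00255). INTS8 overlaps CCNE2 on the opposite strand over 1977 bases. The log2 fold change of CCNE2 was -0.85 (edgeR adjusted p = 0.0559), and reads may be shared if counting ignored strand. INTS5, the other shoulder subunit, was at 69.1, 55.3 and 62.0 CPM in NC and 65.0, 54.6 and 66.6 CPM in ASO, with a log2 interval of -0.29 to 0.29 (adjusted p = 0.996).

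INTS6, which also contacts PP2A, was at 26.5, 33.7 and 22.8 CPM in NC and 34.3, 63.0 and 32.5 CPM in ASO. The ASO2 library was the highest, the groups overlapped, and the difference did not pass by edgeR (log2 fold change 0.65, 95% interval 0.01 to 1.28, adjusted p = 0.0885), whereas DESeq2 called it (adjusted p = 0.0345). Without ASO replicate 2 the log2 fold change of INTS6 was 0.27 (edgeR adjusted p = 0.258). INTS6 overlaps SERPINE3 on the opposite strand over 3171 bases, a gene at 0 in NC and counted in ASO. PPP2CA and PPP2R1A, the catalytic and scaffold subunits of PP2A, did not pass either, at 152 ± 13.98 against 174 ± 21.03 CPM for PPP2CA (adjusted p = 0.196) and 272 ± 24.5 against 228 ± 27.4 CPM for PPP2R1A (adjusted p = 0.0972).

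In the module of INTS10, INTS13 and INTS14, which is known to bind nucleic acid, 2 of 3 genes fell. INTS10 was at 106, 119.8 and 109 CPM in NC and 65.3, 73.6 and 70.8 CPM in ASO, a 1.6-fold fall from 112 ± 7.35 to 69.9 ± 4.26 CPM (log2 fold change -0.67, SE 0.10, adjusted p = 0.00108). INTS13 was at 88.4, 120.0 and 80.6 CPM in NC and 46.0, 75.4 and 58.5 CPM in ASO, a 1.61-fold fall from 96.3 ± 20.9 to 60.0 ± 14.7 CPM (log2 fold change -0.68, SE 0.21, adjusted p = 0.0298). The wider spread of INTS13 placed its highest ASO library only just below its lowest NC library, and its call was lost without NC replicates 1 or 2 or ASO replicates 1 or 3 (adjusted p of 0.06 to 0.112). INTS14 was at 33.6 to 39.8 CPM in NC and 28.5 to 39.9 CPM in ASO (adjusted p = 0.451).

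The backbone genes did not pass. INTS1, the largest subunit, was at 175, 146 and 187 CPM in NC and 231, 174 and 212 CPM in ASO. Its ASO2 library lay inside the NC range (log2 fold change 0.28, adjusted p = 0.124), and without that library it was called higher (adjusted p = 0.0232). INTS2 was at 9.51, 23.9 and 20.6 CPM in NC and 19.2, 25.8 and 19.6 CPM in ASO, with NC1 far below the rest (adjusted p = 0.536). INTS7 had a log2 fold change of -0.07 (adjusted p = 0.785). The remaining subunits were closely matched between groups in the mean. INTS3, shared with the SOSS complex that binds single-stranded DNA, was at 350.4, 325 and 361 CPM in NC and 372, 318 and 353 CPM in ASO (adjusted p = 0.935), and INTS12, a PHD-finger protein, was at 6.93 to 9.81 CPM in NC and 5.90 to 10.7 CPM in ASO (adjusted p = 0.935). INTS12 overlaps GSTCD on the opposite strand.

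Levels of the subunits, compared as CPM per kb of the annotated transcript, covered a wide range within each complex. Among the 21 cleavage and polyadenylation genes, SSU72 was highest in NC at 161 CPM per kb, followed by SYMPK at 52.9, CPSF7 at 50.2 and PABPN1 at 46.8, and the lowest were PCF11 at 5.27 and PAPOLG at 1.82. The endonuclease CPSF3 was at 11.95 CPM per kb in NC and 6.62 in ASO. Among Integrator genes, INTS3 at 66.0 and INTS11 at 62.5 CPM per kb led in NC, and INTS8 at 5.32, INTS12 at 4.02 and INTS2 at 3.06 were lowest. In ASO, INTS8 fell to 1.72 CPM per kb, below INTS2 at 3.66 and INTS12 at 4.11, the lowest mean level of the 14. These levels rest on 1 transcript model per gene.

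The genes that fell tended to have a low GC content, and this was also the direction over all genes. The 9 genes that fell had transcripts of 37.1% to 47.2% GC (median 39.4%), the 3 that rose 43.2% to 51.2%, and the 23 that did not pass had a median of 50.9%. INTS4 at 47.2% and INTS10 at 47.1% lay above the median of the 35 genes, 46.4%. Across the 35 genes, the correlation of GC content with log2 fold change was 0.42 (Spearman) and 0.40 (Pearson), and across 11700 genes at 1 CPM or more in NC it was 0.37 and 0.31. These are correlations across genes of the same libraries, and genes are not independent replicates. Under 42% GC, 5 of the 8 genes fell, where 34.0% of all genes did, and from 42% to 48% GC 4 of 13 fell, where 30.01% of all genes did. From 48% to 55% GC 2 of 7 genes rose and 0 fell, where 600 of 2462 genes rose and 22.1% fell. At 55% GC or more none of the 7 genes was called in either direction, where 1185 of 3915 genes rose and 10.9% fell. After removal of smooth trends with GC content and transcript length, the log2 fold changes of CPSF6 and NUDT21 were -0.11 and -0.06, against -0.46 and -0.47 before. The median over all genes at 1 CPM or more in NC was -0.14 after this removal. The other falls kept more of their size: -1.28 for INTS8, -0.70 for INTS4, -0.65 for INTS10, -0.63 for CPSF3, -0.62 for CPSF2, -0.61 for PAPOLA and -0.41 for INTS13. WDR33 was at 0.41, CPSF7 at 0.20 and CSTF1 at 0.47. The part of GC content in these differences was not tested beyond these values.

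**Figure D4:**
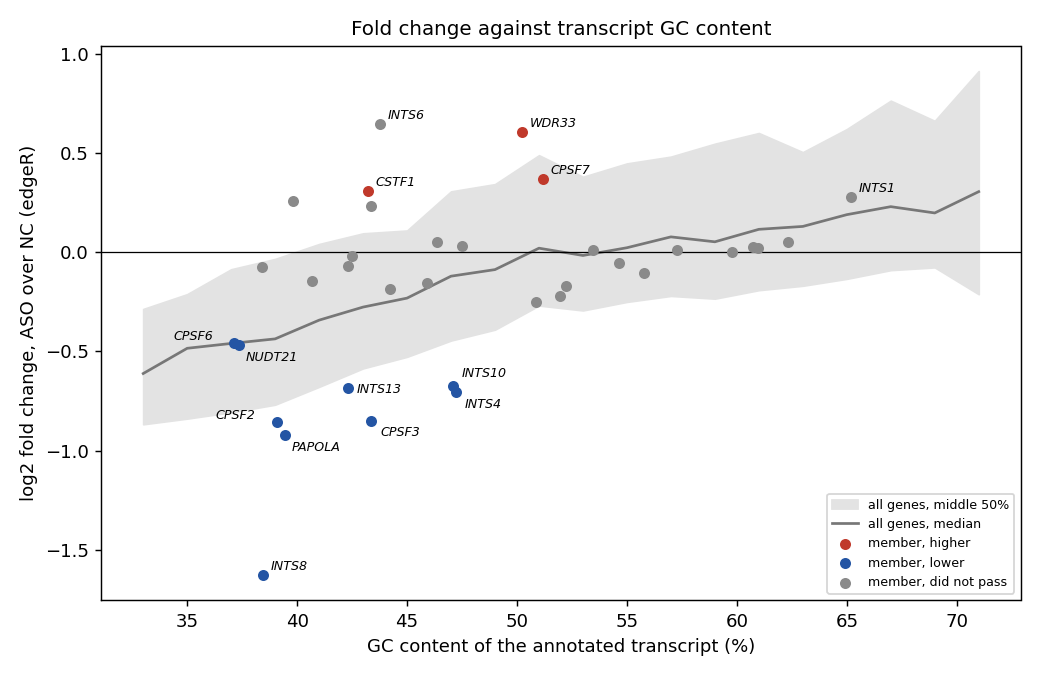
Log2 fold change, ASO over NC, against the GC content (%) of the annotated transcript for the 35 genes (points; red, higher; blue, lower; grey, did not pass), over the median (line) and middle 50% (band) of all genes at 1 CPM or more in NC. The median of all genes rises with GC content, CPSF6 and NUDT21 lie on it, and INTS8, INTS4, INTS10, CPSF2, CPSF3, PAPOLA and INTS13 lie below the band.

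The genes that fell mostly had the same highest library in each group. NC2 was the highest NC library for 8 of the 9 and ASO2 the highest ASO library for 8 of the 9. INTS4 was the exception in both groups. Over all 2692 genes called lower, NC2 was highest for 55.9% and ASO2 for 55.2%. The part of this library difference in the falls was not tested, and the values without each library are given beside the genes above.

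Other genes of the pathway were taken from lists drawn up with earlier results of these data known. Of 74 tested genes outside the 35, 20 were higher, 21 were lower and 33 did not pass, 55.4% called, where 46.0% of all genes tested were called (26.8% higher, 19.1% lower) and 44.2% of those at or above the lowest of the 35 (18.3% higher, 25.8% lower). Their median log2 fold change was -0.07. The counts per list below are to be read against these shares, and no list was tested as a set. Without single libraries the number lower fell to 13 (NC replicate 1), 11 (NC replicate 2) or 10 (ASO replicate 3). Over all genes it fell from 2692 to 1755, 1850 and 1764 in the same fits.

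Among 11 tested partners of Integrator, 4 rose and 1 fell. NABP1, a single-stranded DNA binding protein that joins INTS3 in SOSS, rose 2.38-fold, from 30.01 ± 2.44 to 71.5 ± 16.5 CPM (adjusted p = 0.000938). INTS15, a recently assigned Integrator subunit, rose 1.67-fold, from 17.0 ± 0.963 to 28.5 ± 5.06 CPM (adjusted p = 0.00677). ZNF655 rose 1.41-fold, and its call was lost without NC replicates 1 or 3 or ASO replicates 1 or 3 (adjusted p of 0.0711 to 0.0833). SEM1, a small acidic protein of several complexes, fell 1.74-fold, from 115 ± 5.98 to 66.2 ± 8.31 CPM (adjusted p = 0.00106).

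Among 28 termination factors and proteins of the polymerase tail, 6 rose and 9 fell. PPP1R10 (PNUTS), which targets protein phosphatase 1 to the elongation machinery near poly(A) sites, rose 2.21-fold. It was at 199.5, 180.0 and 198 CPM in NC and 450.2, 395 and 432 CPM in ASO (adjusted p = 4.16e-05). SCAF4, a tail-binding protein known to restrain early polyadenylation, rose 1.82-fold, and RPRD2, another tail-binding protein, rose 1.66-fold. CTR9, the scaffold of the PAF1 elongation complex, fell 1.69-fold, from 63.6 ± 8.24 to 37.5 ± 4.25 CPM (adjusted p = 0.00309). With CTR9, LEO1, WDR61 and RTF1, 4 of 6 genes of that complex fell and none rose, where 19.1% of all genes tested fell. XRN2, the exonuclease that degrades the RNA left after cleavage, was also among the falls, at 92.4 ± 4.78 against 66.2 ± 7.09 CPM (adjusted p = 0.00829). XRN2 and the PAF1 complex lie outside the naming rule and were chosen after their values were seen.

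The U1 snRNP, whose binding is known to protect transcripts from early cleavage, had 2 of 3 tested protein genes lower, SNRPA 1.26-fold and SNRPC 1.19-fold. SNRPA lost its call without NC replicates 1 or 3 or ASO replicate 3, and SNRPC lost it in 9 of the 15 alternatives, DESeq2 among them (adjusted p of 0.0501 to 0.125). Histone messenger RNAs are cut by CPSF3 in a separate complex, and of 8 genes for their 3′ ends, 1 rose and 3 fell. ZNF473, a zinc-finger protein of that complex, rose 1.86-fold, from 20.1 ± 0.815 to 37.4 ± 2.17 CPM (adjusted p = 0.000606), and CASP8AP2 (FLASH) fell 2.07-fold, from 10.1 ± 2.50 to 4.90 ± 0.812 CPM (adjusted p = 0.0084). SLBP, which binds the histone stem-loop, fell 1.36-fold and LSM10 1.26-fold, with calls lost in 4 and 7 of the 15 alternatives (adjusted p of 0.0741 to 0.101 and 0.0565 to 0.124).

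Of 12 tested genes for other poly(A) polymerases and for tail- or 3′-end-binding proteins, 5 rose and 4 fell. CPEB4, a cytoplasmic regulator of tail length, rose 5.48-fold, from 4.32, 7.31 and 5.67 CPM in NC to 27.5, 35.3 and 32.1 CPM in ASO (adjusted p = 0.000104). CPEB2 rose 4.88-fold, from 3.74 ± 0.624 to 18.2 ± 8.65 CPM (adjusted p = 0.00226), and CPEB3 rose 1.81-fold, a call lost without NC replicate 3 or ASO replicate 3 (adjusted p of 0.0513 and 0.0724). CPEB1 fell 1.53-fold, and that call was lost without any 1 of the 6 libraries (0.0501 to 0.125).

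Of 12 nuclear RNA surveillance genes, 4 rose and 2 fell. MTREX, the helicase that feeds RNA to the nuclear exosome, fell 2.4-fold, from 43.6, 59.7 and 38.5 CPM in NC to 11.99, 29.4 and 17.6 CPM in ASO (adjusted p = 0.0144). Its call was lost without NC replicate 2 or ASO replicate 3 (adjusted p of 0.0557 to 0.061). EXOSC3, an RNA-binding cap subunit of the exosome, fell 1.56-fold (adjusted p = 0.00999). ZCCHC8, which partners MTREX, rose 2.33-fold, from 44.3 ± 7.19 to 103 ± 38.1 CPM (adjusted p = 0.0092), and lost its call only without ASO replicate 2 (0.0505). ZC3H4, known to restrict non-coding transcription, rose 1.44-fold (adjusted p = 0.00377).

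Read-through is the known effect of losing this machinery, but a table of counts per gene has no reads between genes, and it shows only the counts of annotated neighbours. Tested genes were grouped by whether a gene at 1 CPM or more in NC lay within 5 kb. Each went to the first class that applied: same strand upstream, then head to head, then tail to tail. The shares in this paragraph include genes under 1 CPM in NC, many of which could only be called higher. They are no measure of an effect of position, and the shares without such genes follow below. Of 1523 genes that start after the end of a gene on the same strand, 39.2% were called higher and 9.52% lower, with a median log2 fold change of 0.24. For 1625 genes head to head with a gene on the opposite strand these shares were 16.7% and 23.8%, for 1270 genes tail to tail 29.2% and 17.6%, and for 9464 genes with none of these neighbours 26.2% and 20.4%. The same-strand share was 41.5% within 2 kb and 36.8% within 10 kb.

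These shares include genes under 1 CPM in NC, many of which could pass the filter on counts only through the ASO libraries and so had to be higher there, and no share is given for them alone. Among genes at 1 CPM or more in NC the shares called higher were 29.03% of 1240 downstream genes, 13.8% head to head, 21.4% tail to tail and 20.3% of the rest, and the shares called lower 11.7%, 25.8%, 21.8% and 24.1%. At this level, 32.1% of downstream genes within 2 kb and 27.0% of those within 10 kb were called higher. The classes, taken over all tested genes, also differed in GC content, with medians of 57.5% for the downstream genes, 49.7% head to head, 54.8% tail to tail and 48.7% for the rest. After removal of the trends with GC content and length, their median log2 fold changes at 1 CPM or more were -0.07, -0.19, -0.15 and -0.13. The median over all genes at that level was -0.14, so these values are to be read against -0.14. The part of GC content, of strand-unaware counting and of the annotation in these shares was not tested.

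**Figure D5:**
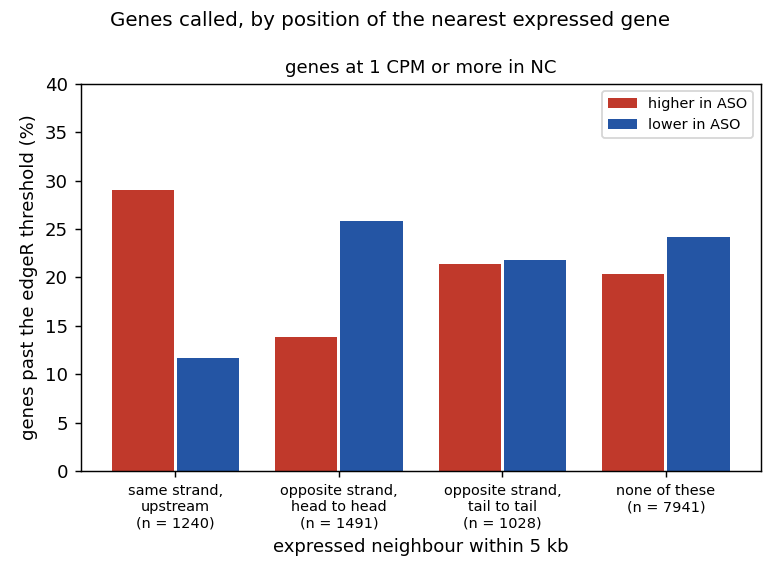
Share of tested genes (%) called higher (red) and lower (blue) in ASO by edgeR, by the position of a gene at 1 CPM or more in NC within 5 kb, for genes at 1 CPM or more in NC. The share called higher is 29.03% for genes downstream of a same-strand gene and between 13.8% and 21.4% for the other classes.

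Some of the 35 genes are themselves the upstream gene of such a pair. RSPH6A, a gene of sperm flagella, starts 102 bases after the annotated end of SYMPK. It had 0, 0 and 12 counts in the NC libraries and 214, 174 and 187 counts in the ASO libraries, and passed the filter on counts only through ASO, so its values are given with no test. ACAP3, a GTPase-activating protein that starts 3655 bases after INTS11, rose from a mean of 89.6 to 143 CPM (adjusted p = 0.00437). Expressed genes on the opposite strand lay nearer to ACAP3, at 667 bases head to head and 362 bases tail to tail. Also within 5 kb, 3 downstream genes did not pass, GANAB after INTS5 (log2 fold change -0.03), IAH1 after CPSF3 (-0.45, adjusted p = 0.138) and BRIP1 after INTS2 (0.42, adjusted p = 0.275). Of the genes 5 to 10 kb downstream, ANKRD42, 6261 bases after PCF11, rose (log2 fold change 0.75, adjusted p = 0.0057), and ZDHHC5, 5882 bases after CLP1, did not pass (0.21, adjusted p = 0.121). Both also had a nearer expressed gene tail to tail on the opposite strand, at 2982 bases for ANKRD42 and 2528 bases for ZDHHC5. CASS4, 5750 bases after CSTF1, was below the filter, with 0 counts throughout NC against 57, 5 and 90 counts in ASO1, ASO2 and ASO3. The pairs were not chosen by their values, and whether the downstream counts come from transcripts that began in the upstream gene was not tested.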

How the data were processed

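RNA sequencing of 3 NC and 3 ASO libraries was analysed from the table of estimated counts per gene that the authors deposited. Per the submitters' processing notes, the tools were StringTie, STAR, FastQC and DESeq2 and the build hg38, with no version or role. No source used here states the annotation, whether counting used strand, or how multiply matching reads were counted. The deposited counts are whole numbers, so rounding changed 0 values. The most frequent value above 0 is 4, so 1 fragment is worth about 4 counts, and a count of 12 stands for about 3 fragments. Depth is therefore lower than the column totals say.

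Counts were fitted in R 4.3.3 with edgeR 4.0.16 (robust quasi-likelihood test, no replicate block, filterByExpr at a minimum of 10 counts and 15 in total, TMM scaling), with Benjamini-Hochberg adjustment over 14062 genes and a threshold of 0.05. Intervals are 95% intervals of the fitted log2 fold change. Levels are TMM-scaled CPM. Alternatives were other scalings and filters, DESeq2 1.42.0, limma-voom (limma 3.58.1), counts divided by 4, leave-one-out fits and a block on the replicate number. The labels do not say that a shared number pairs libraries, so numbers were not taken to pair them. Deviations of same-numbered libraries correlated at 0.05, 0.19 and 0.02. The scripts were tested on simulated data.

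Transcripts, strand, neighbours and sequences came from GENCODE 29 (GRCh38), 1 transcript per gene (APPRIS principal, then CCDS, basic and longest), which matched 13882 of the tested genes. Loess fits removed trends with GC content and length, with a span of 0.5. The members and lists were chosen with earlier results of these data known. Named genes are all 35, EIF4A1, up to 4 called genes without overlap per pathway list by fold change, and markers as levels. PP2A subunits, overlapping genes and downstream neighbours are named for their relation to the 35. The tail-to-tail class and the comparison with genes of similar level were added after the data were seen. A few downstream neighbours and 1 sequence window are not reported here.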

Additional observations from a re-analysis of the deposited data

How the results depend on the processing

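Of the 12 called genes, 5 (WDR33, CPSF7, INTS4, INTS8 and INTS10) kept their call in all 15 alternatives, and the other 7 lost it only when a library was left out. No called gene changed direction, while 14 of the 23 that did not pass changed sign in at least 1 alternative. Without a filter on low counts the median log2 fold change of all genes moved by 0.11. When single libraries were left out, lower calls among the 21 cleavage and polyadenylation genes ranged from 0 to 5, Integrator genes called higher from 0 to 1, pathway genes called lower from 10 to 22, and all genes called lower from 1755 to 3199. DESeq2 called 1 Integrator gene higher (INTS6). A replicate block called 2 Integrator genes higher (INTS1 and INTS6, adjusted p = 0.0151 and 0.00967) and added CLP1 to the lower calls (adjusted p = 0.0476). Over all genes the block called 3494 lower, against 2692 without it. Deviations of NC2 correlated best with ASO2 (0.19), whereas those of NC3 correlated better with ASO1 (0.09) than with ASO3 (0.02). Whether the numbers pair the libraries is not settled by these values. After removal of GC and length trends the median log2 fold change was -0.12 for the cleavage and polyadenylation genes, -0.28 for the Integrator genes and -0.14 for all genes. The distance set for neighbours moved their share by less than 1.5 times, over all tested genes and among those at 1 CPM or more in NC. The widest interval was that of PCF11, and the cause of its spread was not tested.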
